A study of Mus musculus with 2 samples.

Results

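Rgcc, Lbh, Sorbs2, Tifa, Cdca7, Utrn and Marcksl1 are 7 genes for intracellular proteins, out of 31053 genes counted, that stood much lower in an FZD5/8 antagonist library than in an Fc control library of the mouse jejunum. They were chosen by the ratio of their summed counts between these libraries, so their levels in all cells are a description and the difference itself carries no test. The cells came from Lgr5-eGFP-IRES-CreER mice, in which the Lgr5 locus drives eGFP and an inducible Cre. According to the labels, female mice aged 10 to 12 weeks, 3 per condition, received the FZD5/8 antagonist or the Fc control. The sex-linked transcripts, given below, do not bear out this label for the control library. GFP-positive cells were taken by flow cytometry for droplet single-cell RNA sequencing. Each condition has 1 library, cells cannot be assigned to a mouse from the labels, and neither a dose nor a treatment time is stated in them. Both groups carry the reporter allele. Every comparison is therefore between these libraries, and each interval is a 95% interval for counting error only.

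Crypt base stem cells of the small intestine depend on Wnt ligands, which bind Frizzled receptors and LRP co-receptors at the cell surface, stabilise β-catenin and so let TCF/LEF transcription factors act on their target genes. FZD5 and FZD8 are closely related Frizzled receptors. Lgr5, an R-spondin receptor, Ascl2, a stem cell transcription factor, and Olfm4, an abundant secreted protein, mark these cells. The comparison asks how crypt cells differ when FZD5 and FZD8 are blocked.

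Cells were kept that had 500 or more genes and no more than 20% mitochondrial unique molecular identifiers (UMIs, each counting 1 captured transcript), 11019 (84.2%) in the antagonist library and 11263 (88.9%) in the control library. They held medians of 2732 and 4478 UMIs in the antagonist and control libraries. The epithelial markers Epcam, Krt8, Krt18, Krt20, Cdh1 and Vil1 summed to 4858 and 4730 CPM (counts scaled to a library total of 1e6 UMIs) in antagonist and control cells. All 10 immune markers had UMIs, summing to 4.91 and 22.3 CPM, and the 9 stromal, vessel and muscle markers summed to 1.36 and 1.84 CPM, with 2 and 5 of them above 0. The part of these immune and stromal transcripts in the results was not tested. Lgr5 itself stood at 3.09 and 66.2 CPM. Both libraries are labelled female, but Y-linked transcripts reached 5.60 CPM in antagonist and 106 CPM in control cells, and Xist 512 and 1.33 CPM, so sex-linked differences and the condition cannot be told apart. The libraries shared 145 cell barcodes, 67 of them kept in both. Without the shared barcodes the members' log2 ratios ran from -3.46 to -1.53, against -3.47 to -1.53 with them.

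Rgcc (ENSMUSG00000022018, GRCm38 chr14:79288756-79301645, minus strand) encodes a regulator of the cell cycle, described in rat and human cells as binding the mitotic kinase CDK1. It had 349 UMIs in the antagonist library, 6.42 CPM (5.77 to 7.13), against 4714 UMIs in the control library, 71.2 CPM (69.2 to 73.3). This was 11.1-fold lower (9.94 to 12.4). A gene was counted as measured where it reached 20 CPM in either library and 100 UMIs in their sum. Of 5839 such genes, 5 had a lower ratio.

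Lbh (ENSMUSG00000024063, chr17:72918305-72941947, plus strand), a transcription cofactor first described in limb bud and heart, had 17.9 CPM in antagonist cells and 118 CPM in control cells. This was 6.57-fold lower (6.14 to 7.03). Sorbs2 (ENSMUSG00000031626, chr8:45507788-45827906, plus strand), an adaptor that links vinculin, Cbl and Abl kinases to the actin cytoskeleton, had 6.94 and 54.6 CPM in antagonist and control cells, 7.86-fold lower (7.07 to 8.77). Both ranked among the 14 lowest ratios of the measured genes.

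Tifa (ENSMUSG00000046688, chr3:127789805-127832164, plus strand) is the adaptor that carries the ALPK1 signal of bacterial heptose metabolites to TRAF6 and NF-kB. It had 11.3 CPM in antagonist cells and 60.8 CPM in control cells, 5.38-fold lower (4.94 to 5.86). Marcksl1 (ENSMUSG00000047945, chr4:129513581-129515985, plus strand), an actin- and calmodulin-binding substrate of protein kinase C, had 11.2 and 45.4 CPM in antagonist and control cells, 4.03-fold lower (3.70 to 4.41). These ratios were intermediate within the set.

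The most abundant members differed least. Cdca7 (ENSMUSG00000055612, chr2:72476159-72486893, plus strand) encodes a Myc- and E2F-responsive protein that brings the remodeller HELLS to chromatin for the maintenance of DNA methylation. It had 118 CPM in antagonist cells and 339.5 CPM in control cells, 2.89-fold lower (2.81 to 2.97). Utrn (ENSMUSG00000019820, chr10:12382188-12869365, minus strand) encodes utrophin, the relative of dystrophin that joins actin to the dystroglycan complex. It had 59.1 CPM in antagonist cells and 174 CPM in control cells, 2.95-fold lower (2.84 to 3.07).

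All 7 members were at least 2-fold lower, a size that 2.65% of the measured genes reached. This count restates how the members were chosen, and nothing is read from it. The median log2 ratio over all measured genes was -0.07.

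**Figure D1:**
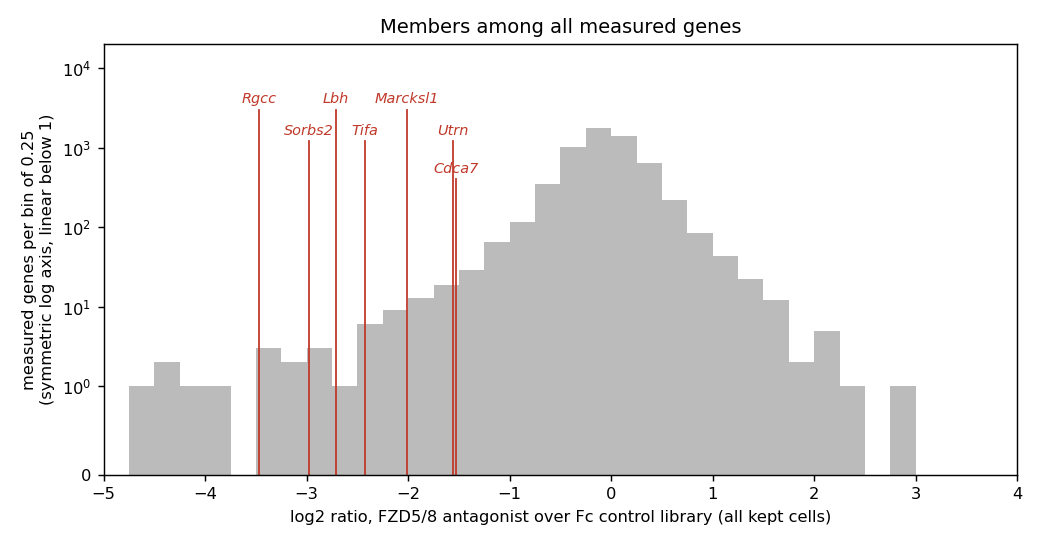
Distribution of the log2 ratio, FZD5/8 antagonist over Fc control library, for 5839 measured genes in all kept cells (x axis), as genes per bin (y axis, symmetric log axis). Red lines mark the 7 members, all left of the bulk of genes, from Rgcc at -3.47 to Cdca7 at -1.53.

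At equal depth, members were also found in fewer antagonist cells. With every cell thinned to 3000 UMIs, which kept 5036 antagonist and 7536 control cells, Rgcc had a UMI in 1.97% of antagonist cells (exact binomial interval 1.60 to 2.39) and 19.4% of control cells (18.5 to 20.3). Cdca7, the most widely detected member, had a UMI in 30.0% of antagonist cells (28.8 to 31.3) and 63.0% of control cells (61.9 to 64.1). Lbh was found in 4.03% of antagonist cells (3.50 to 4.61) and 27.5% of control cells (26.5 to 28.5). The members were chosen on the same counts, so these lower shares describe how the difference was spread over cells and are no further evidence of it.

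The other members were likewise found less often. Sorbs2 was found in 2.01% of antagonist cells (1.64 to 2.43) and 15.0% of control cells (14.2 to 15.9), and Tifa in 2.76% (2.33 to 3.25) and 17.1% (16.2 to 18.0). Utrn was found in 14.8% of antagonist cells (13.8 to 15.8) and 38.5% of control cells (37.4 to 39.6), and Marcksl1 in 2.68% (2.25 to 3.17) and 12.7% (11.9 to 13.5). Without thinning the shares of antagonist cells were 2.70% for Rgcc, 6.53% for Lbh, 3.09% for Sorbs2, 4.77% for Tifa, 33.5% for Cdca7, 19.98% for Utrn and 4.45% for Marcksl1. In unthinned control cells they were 25.8%, 37.1%, 24.3%, 26.4%, 70.4%, 53.8% and 18.0% in the same order of genes.

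Enterocytes, mature absorptive cells, were used as a comparison for the level that free RNA could give. Whether their UMIs came from free RNA or from their own transcripts was not tested, and Utrn is not restricted to crypt cells. Before thinning they had median depths of 3255 and 7131 UMIs in the antagonist and control libraries. Cdca7 had a UMI in 6.76% of thinned antagonist enterocytes (3.75 to 11.1) and 12.5% of control enterocytes (7.70 to 18.8), well under its shares in all cells. Rgcc had a UMI in 0.483% of antagonist enterocytes (0.0122 to 2.66) and 3.95% of control enterocytes (1.46 to 8.39). In the control library the Rgcc share of all cells lay above this range, and in the antagonist library the 1.97% of all cells lay within it.

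In antagonist enterocytes the shares were 1.93% for Lbh (0.529 to 4.87), 0.483% for Tifa and Marcksl1 (0.0122 to 2.66) and 12.6% for Utrn (8.37 to 17.9). Sorbs2 had no UMI in 207 antagonist enterocytes, which allows a share of up to 1.45% by the floor of 3 counts and 1.77% by the exact interval. For Lbh and Utrn the shares of all antagonist cells lay within these ranges, so they were not separable from the enterocyte level at this depth. For Sorbs2, Tifa and Marcksl1 these shares lay above the ranges, but their own intervals overlapped them. Those intervals were 1.64 to 2.43, 2.33 to 3.25 and 2.25 to 3.17, so these members were not clearly separable either. In control enterocytes the shares were 4.61% for Lbh (1.87 to 9.26), 0.658% for Sorbs2, 7.89% for Tifa, 23.0% for Utrn (16.6 to 30.5) and 2.63% for Marcksl1, each under the share of all control cells.

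Cells were then sorted into 5 exclusive gates by marker genes that include no member. Differentiated cells carried markers of enterocytes, goblet, Paneth, tuft or enteroendocrine cells. Mitotic cells carried G2 and M phase transcripts, S phase cells carried replication transcripts, Lgr5-detected cells had an Lgr5 UMI and none of these features, and the rest are called remaining crypt cells. The Lgr5-detected gate held 87 antagonist and 2056 control cells, the S phase gate 1660 and 1244, the mitotic gate 2442 and 1915, the differentiated gate 1700 and 1006, and the remaining gate 5130 and 5042. The phase gates are ranges and not types, since 2886 antagonist and 2428 control cells lay within a factor of 0.67 to 1.5 of the S phase limit. The gates divide the same cells and counts by which the members were chosen. In every gate below, the number of members at least 2-fold lower therefore largely restates that choice, and nothing is read from it.

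In the mitotic gate all 7 members were at least 2-fold lower, as were 2.64% of genes measured there. Rgcc had its lowest ratio of the main gates here, with 5.43 CPM in antagonist cells and 82.1 CPM in control cells, 15.1-fold lower (11.5 to 20.3). Marcksl1 had 5.12 and 26.1 CPM in antagonist and control mitotic cells, 5.09-fold lower (3.77 to 6.995). Utrn differed least among the members, with 73.8 and 189 CPM, 2.55-fold lower (2.35 to 2.78).

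In the S phase gate 6 of 7 members were at least 2-fold lower, against 2.1% of measured genes. The exception was Cdca7, at 191 CPM in antagonist cells and 361 CPM in control cells, 1.89-fold lower (1.76 to 2.04). S phase cells had the highest Cdca7 level of any gate in the antagonist library, whereas in the control library its highest level lay in Lgr5-detected cells. Its log2 ratio of -0.92 in this gate was -1.03 with the gate limits multiplied by 0.67, past 2-fold. Rgcc had 6.98 and 55.9 CPM in antagonist and control S phase cells, 8.00-fold lower (5.68 to 11.6). Lbh was 6.31-fold lower, Sorbs2 5.39-fold, Tifa 4.91-fold, Marcksl1 4.73-fold and Utrn 2.80-fold.

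Remaining crypt cells, the largest gate, had all 7 members at least 2-fold lower, against 3.11% of measured genes. As in the other gates, this count is no further evidence of the difference. Lbh had 13.6 CPM in antagonist cells and 126 CPM in control cells, 9.26-fold lower (8.35 to 10.3). Rgcc was 10.99-fold, Sorbs2 8.30-fold, Tifa 5.88-fold, Marcksl1 4.52-fold, Utrn 3.23-fold and Cdca7 3.14-fold lower. The order of the members by ratio was that over all cells, except that Lbh lay below Sorbs2. The gate held 55.5% of antagonist and 35.2% of control UMIs. Goblet markers made up 0.233% of its UMIs in antagonist cells and 0.0425% in control cells, Paneth markers 1.88% and 0.784%, and mitotic markers 0.281% and 0.120%. The part of this different make-up in the gate's ratios was not tested.

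**Figure D2:**
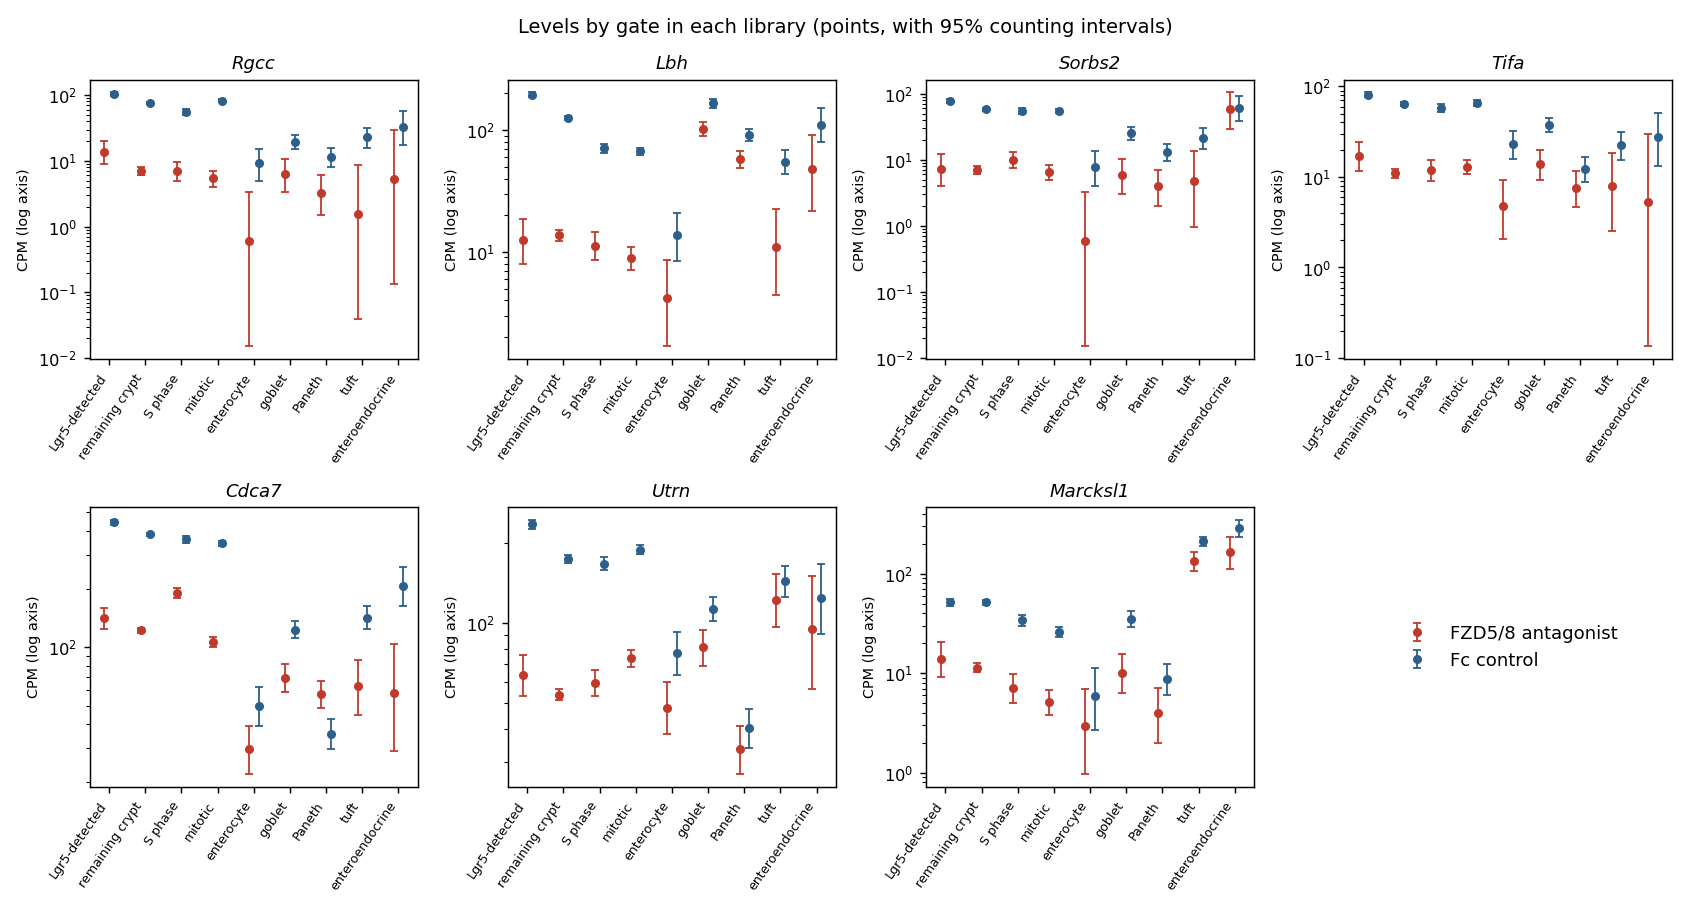
Level of each member in CPM (log axis) by gate and differentiated cell type, with FZD5/8 antagonist points left of Fc control points and 95% counting intervals as bars. Control levels were highest in crypt gates for Rgcc, Tifa, Cdca7 and Utrn, while Lbh was also high in goblet cells (102 and 166 CPM in antagonist and control cells) and Marcksl1 in tuft and enteroendocrine cells.

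In Lgr5-detected cells all 7 members were at least 2-fold lower when UMIs were summed, against 5.71% of measured genes. Lbh had 12.5 CPM in antagonist cells and 196 CPM in control cells, 15.7-fold lower (10.5 to 24.6). Sorbs2 had 7.26 and 77.5 CPM, 10.7-fold lower (6.33 to 19.6), and Rgcc had 13.5 and 104 CPM, 7.71-fold lower (5.24 to 11.9). Tifa was 4.71-fold, Utrn 3.68-fold, Marcksl1 3.67-fold and Cdca7 3.14-fold lower.

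These sums rest on few, very deep antagonist cells. In the antagonist library 37 of the 87 cells had 10000 or more UMIs and held 90.3% of the gate's UMIs, while in the control library 281 of 2056 cells held 34.3%. Goblet markers made up 0.348% of the gate's UMIs in antagonist cells and 0.0302% in control cells, and Paneth markers 2.05% and 0.642%. An Lgr5 UMI was the only one in 94.3% of antagonist and 70.6% of control cells of the gate. The part of the goblet and Paneth transcripts in the gate's values was not tested.

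Below 10000 UMIs the ratios of the members ran from 1.46-fold to 16.4-fold lower. With 50 antagonist and 1775 control cells, Rgcc had 75.1 CPM (14 UMIs) and 110 CPM, 1.46-fold lower, with an interval that included equality (0.866 to 2.68). The 14 UMIs lay in 6 of the 50 antagonist cells. In Lgr5-detected cells of 10000 or more UMIs, 37 antagonist and 281 control cells, Rgcc had 6.89 and 93.4 CPM, 13.5-fold lower (7.67 to 26.4). In the 5 antagonist cells with 2 or more Lgr5 UMIs it had no UMI, against 506 UMIs in 605 control cells. The level of Rgcc in Lgr5-detected antagonist cells thus differed with depth and rested on few cells. Lbh remained far apart, at 37.5 CPM (7 UMIs) and 232 CPM in antagonist and control cells, 6.17-fold lower (2.99 to 15.4). Utrn was 3.25-fold lower (1.96 to 5.81) and Tifa 3.08-fold lower (1.32 to 9.53), each from 15 UMIs or fewer in antagonist cells. Cdca7 had 247 and 478 CPM, 1.94-fold lower (1.45 to 2.65), and Marcksl1 21.5 CPM (4 UMIs) and 55.8 CPM, 2.60-fold lower (1.01 to 9.58). Sorbs2 had 1 UMI in these antagonist cells and 729 in control cells, 16.4-fold lower with an interval of 2.94 to 649.

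Thinned to 3000 UMIs, Lgr5-detected crypt cells of any phase (37 antagonist and 1299 control cells) gave ratios of the same kind. Rgcc had 99.1 CPM from 11 UMIs in antagonist cells and 113 CPM in control cells, 1.14-fold lower (0.633 to 2.31). Lbh had 27.0 CPM from 3 UMIs and 207 CPM, 7.67-fold lower (2.62 to 37.3), and Utrn 63.1 CPM from 7 UMIs and 267 CPM, 4.24-fold lower (2.05 to 10.6). The interval for Rgcc thus included equality, and those for Lbh and Utrn did not. For Cdca7 the ratio was 1.65-fold lower (1.17 to 2.42), and for Marcksl1 1.47-fold lower (0.564 to 5.43). With cells thinned before gating, 18 antagonist and 924 control cells stayed in the Lgr5-detected gate, where 3 of 7 members were at least 2-fold lower. The share of all genes at this size was not counted in the thinned gate, so nothing is read from this count. Sorbs2 is not among the 3 but is undetermined, with no UMI in antagonist cells and 263 in control cells, since the floor of 3 counts gives a log2 ratio of -0.77 or lower. Rgcc was then at 148 CPM (8 UMIs) in antagonist cells and 120 CPM in control cells, a ratio of 1.24 (0.530 to 2.47).

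Within each library, thinned crypt cells with and without an Lgr5 UMI were set side by side. In the antagonist library Rgcc was 13.8-fold higher in the 37 Lgr5-detected cells than in 4257 undetected cells (6.64 to 25.8), at 99.1 and 7.20 CPM. In the control library it was 1.36-fold higher (1.21 to 1.51), at 113 and 83.7 CPM. The antagonist level of 99.1 CPM rests on 11 UMIs in 7 of the 37 cells, and in unthinned Lgr5-detected antagonist cells of 10000 or more UMIs Rgcc was low, as given above.

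The other members were compared in the same way. Among antagonist cells the interval for Rgcc overlapped those of Lbh, Sorbs2, Tifa and Marcksl1, and lay above those of Cdca7 and Utrn. In the antagonist library Marcksl1 was 4.43-fold higher in Lgr5-detected cells (1.18 to 11.7, from 4 UMIs) and Cdca7 2.13-fold higher (1.45 to 3.02), and the intervals for Lbh, Sorbs2, Tifa and Utrn included equality. In the control library Lbh was 1.79-fold, Sorbs2 1.61-fold, Utrn 1.498-fold, Tifa 1.33-fold and Cdca7 1.20-fold higher, and the interval for Marcksl1 included equality (1.13-fold, 0.967 to 1.32). Among control cells Lbh thus had the highest of these ratios (1.64 to 1.94), with an interval that overlapped that of Sorbs2 (1.42 to 1.83).

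**Figure D3:**
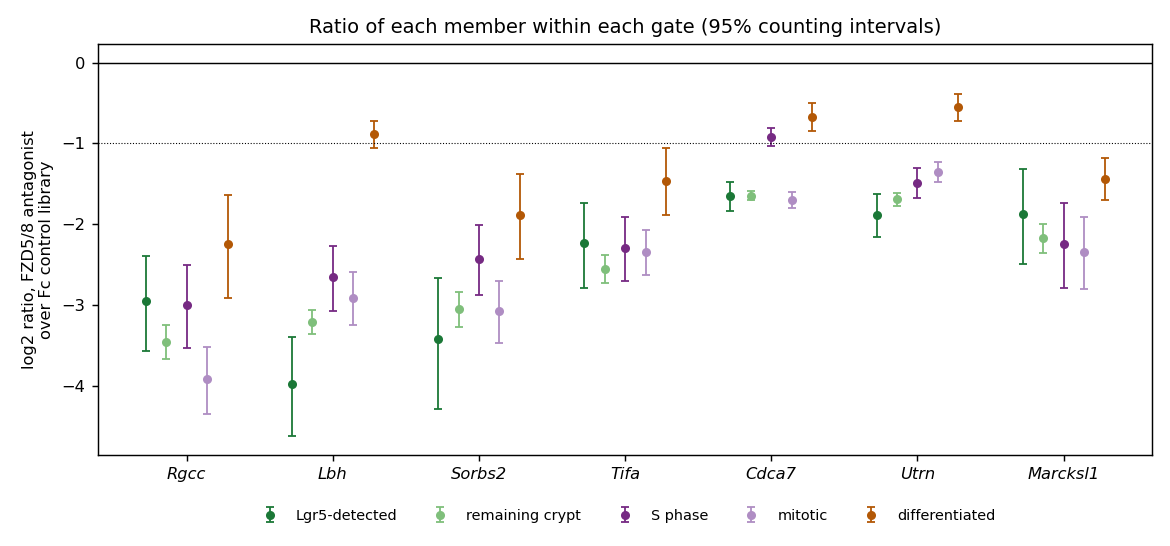
Log2 ratio of each member, FZD5/8 antagonist over Fc control library (y axis), in 5 gates, with 95% counting intervals. The dotted line marks a 2-fold lower level. Points for differentiated cells lie nearest to 0 for every member, and all points lie below 0.

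Differentiated cells had 4 of 7 members at least 2-fold lower. Rgcc and Sorbs2 were under 20 CPM in both libraries, and of the 5 members measured in this gate 2 were at least 2-fold lower, against 0.972% of measured genes. Rgcc had 3.40 and 16.1 CPM in antagonist and control cells, 4.74-fold lower (3.101 to 7.54), and Sorbs2 5.17 and 19.1 CPM, 3.69-fold lower (2.60 to 5.37). Tifa was 2.76-fold lower (2.08 to 3.69) and Marcksl1 2.71-fold lower (2.26 to 3.26). Lbh (1.85-fold), Cdca7 (1.60-fold) and Utrn (1.47-fold) did not reach a 2-fold difference. The median log2 ratio over all genes measured in this gate was 0.19.

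By cell type, Lbh was high in goblet cells as well as in Lgr5-detected control cells. Goblet cells, which make mucus, had Lbh at 102 CPM in 539 antagonist cells and 166 CPM in 346 control cells, 1.63-fold lower (1.38 to 1.91). In the antagonist library goblet cells therefore held the highest Lbh level of any gate, above Lgr5-detected cells at 12.5 CPM. In the control library Lgr5-detected cells (196 CPM) stood above goblet cells. Enterocytes had the lowest level in both libraries, 4.16 and 13.7 CPM in antagonist and control cells, although in the antagonist library they did not differ beyond counting error from mitotic cells.

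Marcksl1 was highest in enteroendocrine cells, which make hormones, at 164 CPM in 73 antagonist cells and 285 CPM in 66 control cells, 1.74-fold lower (1.15 to 2.69). Tuft cells, which sense luminal signals, had 134 and 212 CPM, 1.59-fold lower (1.25 to 2.04). These types kept a high level in the antagonist library, where every other gate had at most 14.0 CPM. Between enteroendocrine and tuft cells the levels did not differ beyond counting error in the antagonist library, and did in the control library.

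Sorbs2 and Utrn stood at like levels in some differentiated types. Enteroendocrine cells had Sorbs2 at 58.3 CPM (11 UMIs) in antagonist cells and 61.0 CPM (22 UMIs) in control cells, 1.05-fold lower with an interval of 0.486 to 2.39. Tuft cells had Utrn at 123 and 144 CPM in antagonist and control cells, 1.17-fold lower (0.901 to 1.54). These intervals include equality and also leave room for a difference. Tifa reached at most 14.0 CPM in antagonist cells and 37.5 CPM in control cells of any differentiated type, both in goblet cells.

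In the Paneth gate, Cdca7 was higher in antagonist cells, at 57.4 CPM against 35.8 CPM in control cells, a log2 ratio of 0.68. The median over all genes in this gate was 1.70, and Paneth markers took 42.5% of the gate's UMIs in antagonist cells and 62.7% in control cells, so Cdca7 lay below most genes there. The control cells of this gate had a median of 1469 UMIs against 2975 in antagonist cells. Yet the 169 control cells held 3519065 UMIs in all, and the 447 antagonist cells 2770554. The control level thus rests mostly on cells far deeper than the median.

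Giving each gate the same weight in both libraries changed the ratios little. Weighted in this way, log2 ratios were -3.34 for Rgcc, -2.94 for Sorbs2, -2.64 for Lbh, -2.35 for Tifa, -1.995 for Marcksl1, -1.51 for Cdca7 and -1.50 for Utrn. Without weighting they were -3.47, -2.97, -2.72, -2.43, -2.01, -1.53 and -1.56. The weighting makes the shares of the gates alike, not the make-up within the remaining crypt cells.

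Thinned crypt cells were next grouped by Olfm4, which itself was lower in the antagonist library (323 and 2325 CPM in antagonist and control cells). Most antagonist cells had few Olfm4 UMIs: 2442 had 0, 1391 had 1 to 2, 431 had 3 to 9 and 30 had 10 or more of 3000, while the control numbers were 308, 651, 3197 and 2616. Rgcc had 4.23, 8.39, 23.2 and 77.8 CPM across these strata in antagonist cells, and 14.1, 41.0, 86.6 and 114 CPM in control cells. It thus increased with Olfm4 in both libraries. Rgcc was 3.32-fold, 4.88-fold and 3.73-fold lower in the strata up to 9 UMIs, and 1.46-fold lower (0.706 to 3.65) at 10 or more, from 7 UMIs. Strata above 0 are ranges, and Olfm4 levels within them were not compared between the libraries, so cells there need not be matched. The make-up by cell type was not compared in any stratum, so cells with 0 Olfm4 UMIs need not be alike either.

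Lbh stayed low in antagonist cells in every Olfm4 stratum, at 6.96, 12.0, 16.2 and 22.2 CPM, against 23.8, 43.5, 107 and 202 CPM in control cells. It was 9.09-fold lower in the highest stratum (2.51 to 75.1), from 2 UMIs. Cdca7 and Utrn came close together in cells without Olfm4, where Cdca7 had 113 and 147 CPM in antagonist and control cells, 1.30-fold lower (1.08 to 1.56), and Utrn 50.6 and 60.6 CPM, 1.20-fold lower (0.887 to 1.59). In both libraries these genes increased with Olfm4.

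Marcksl1 followed another pattern. In control cells it had 63.9, 57.3, 43.5 and 48.9 CPM across the strata, and in antagonist cells 5.87, 9.11, 20.1 and 11.1 CPM. Its ratio was therefore lowest in cells without Olfm4, 10.9-fold lower (7.22 to 16.5), and it was 2.16-fold lower (1.45 to 3.35) at 3 to 9 UMIs. The stratum without Olfm4 held 2442 antagonist but only 308 control cells, and the part of its make-up in this ratio was not tested. Sorbs2 was 1.90-fold lower (0.886 to 3.72) in cells without Olfm4 and 6.19-fold lower (3.61 to 11.04) at 1 to 2 UMIs. Tifa was 3.08-fold, 3.79-fold and 2.62-fold lower in the strata up to 9 UMIs. At 10 or more Olfm4 UMIs Tifa was 1.34-fold lower (0.612 to 3.66) and Sorbs2 1.52-fold lower (0.648 to 4.70), from 6 and 5 UMIs in antagonist cells, and Cdca7 1.43-fold lower (1.003 to 2.10).

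**Figure D4:**
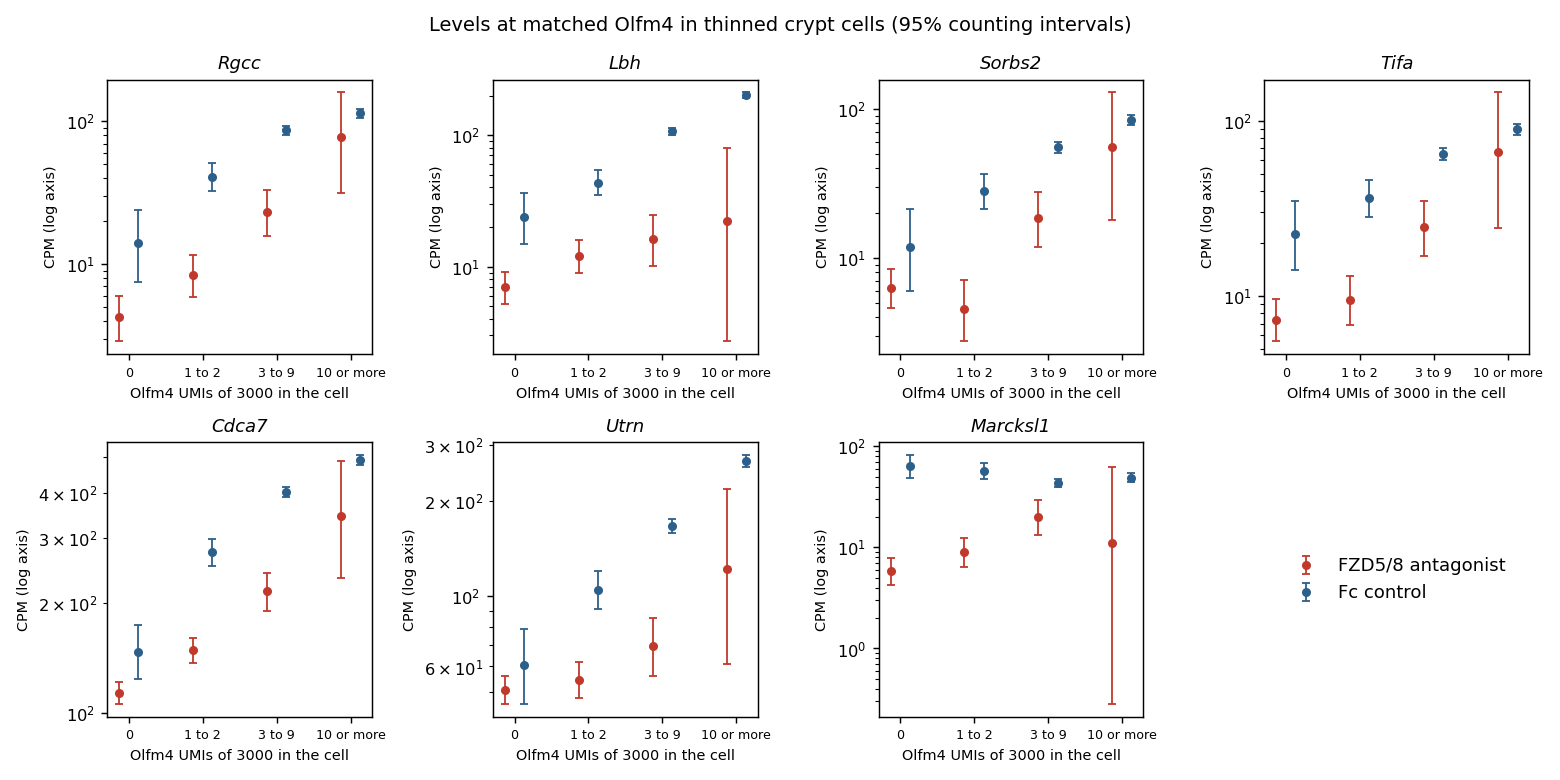
Level of each member in CPM (log axis) in crypt cells thinned to 3000 UMIs, by Olfm4 UMIs per cell (x axis), with FZD5/8 antagonist points left of Fc control points and 95% counting intervals. Rgcc increased with Olfm4 in both libraries, whereas Marcksl1 in control cells ranged only from 43.5 to 63.9 CPM.

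Among cells outside the differentiated gate, which alone are used here, some members moved with depth and mitochondrial share. In control cells Sorbs2 had 141 CPM in cells under 2000 UMIs and 40.4 CPM in cells of 10000 or more, and 40.3 CPM in cells under 2.5% mitochondrial UMIs and 149 CPM in those with 10 to 20%. Utrn in control cells had 333 CPM under 2000 UMIs and 133 CPM at 10000 or more. Within 4 strata of depth and 4 of mitochondrial share, all 7 members were lower in antagonist cells in every stratum. The members were chosen on the same counts, so this is no further evidence of the difference. For Sorbs2 the range over depth was 6.002-fold to 15.0-fold lower and for Utrn 2.33-fold to 4.35-fold.

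Genes that work with each member, or belong to its family, were then listed, and a gene counted as measured by the same limits on CPM and UMIs. Of 7 genes linked to Rgcc, 4 were measured and none was 2-fold lower, with a median log2 ratio of 0.45. Its partner Cdk1 had 159 CPM in antagonist cells and 106 CPM in control cells, and Ccnb1 35.2 and 24.4 CPM. Cdk1, Ccnb1, Ccnb2 and Plk1 also belong to the markers of the mitotic gate. That gate held more antagonist than control cells, but 18.0% of antagonist and 19.5% of control UMIs. Over all kept cells the mitotic markers made up 0.341% of antagonist and 0.259% of control UMIs. The part of cycling cells in these levels was not tested.

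For Cdca7, 7 of 9 partners and DNA methylation genes were measured, with none past 2-fold in either direction and a median of 0.01. Its paralogue Cdca7l had 25.5 and 39.5 CPM in antagonist and control cells, and Uhrf1, which recruits the maintenance methyltransferase, 62.4 and 48.0 CPM. Uhrf1 and Hells also belong to the S phase markers, which made up 0.145% of all antagonist and 0.124% of all control UMIs. The part of S phase cells in these levels was not tested. For the route of Tifa to NF-kB, 7 of 19 genes were measured, none past 2-fold, with a median of -0.05. The kinase gene Ikbkb had 28.8 and 39.3 CPM in antagonist and control cells and Chuk 31.6 and 24.6 CPM.

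Of the Sorbs family and its partners 6 of 12 were measured, with a median of -0.12, and Vcl, which encodes vinculin, had 24.0 and 23.5 CPM in antagonist and control cells. Of the utrophin complex 2 of 18 were measured, Dag1 (dystroglycan) at 136 and 115 CPM and Agrn (agrin) at 21.02 and 22.1 CPM. Of the MARCKS and protein kinase C genes 3 of 12 were measured, with Marcks itself at 116 and 136 CPM. None of these genes was 2-fold lower or higher. At 2.65% of all measured genes at least 2-fold lower, no call among lists of 2 to 7 measured genes is near the background. Of 16 Wnt target genes 10 were measured and 7 were at least 2-fold lower, with a median of -1.62 against -0.07 over all measured genes. Myc, at 34.7 and 54.0 CPM in antagonist and control cells, and Ephb2, at 29.1 and 39.3 CPM, did not reach a 2-fold difference. The lists were chosen with earlier results of these data known, so the Wnt values are context and no independent evidence.

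The genes whose levels ran most alike with each member were found over 18 profiles, 9 gates or cell types in each library, by Pearson's r of log2(CPM + 1) across 5607 genes. These profiles share libraries and depth, so r is a description. Both libraries enter each r, so the difference by which the members were chosen is part of it. A high r therefore need not mean a like pattern across cell types, and r within a library is not given here. Rgcc ran closest to Olfm4 (0.96), Gkn3 (0.96) and Tifa (0.95), and Tifa to Rgcc (0.95), Gkn3 (0.95) and Olfm4 (0.94). Sorbs2 ran closest to Sfrp5 (0.96), Rgmb (0.96) and Agr3 (0.95), and Cdca7 to genes that included Clca3b (0.98) and Efna4 (0.97). Lbh ran closest to Foxa3 (0.90), Rnase4 (0.87) and Tubb2b (0.85), Utrn to Ccser1 (0.93), Zfp292 (0.92) and Grb7 (0.91), and Marcksl1 to genes that included Bicd1 (0.94) and Mcrip1 (0.94). Tifa and Rgcc were thus the only members to name each other.

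Promoters of the members were searched for the TCF/LEF heptamers CTTTGAA and CTTTGAT, and also CTTTGTA and CTTTGTT, on both strands, in RefSeq windows on GRCm38.p6 from 250 bases before to 50 bases after a start site. All 7 members matched, with 10 windows. A heptamer lay in 1 of these windows, against 16.9% of 32851 windows of the same length. It was CTTTGTT in 1 of the 3 windows of Sorbs2, beginning 167 bases before the start site. The 250 bases before the start are shown for that window (chr8:45661743-45661992, plus strand), with the heptamer in capitals, and for Rgcc (chr14:79301636-79301885, minus strand) and Lbh (chr17:72918055-72918304, plus strand), whose levels were among the most different and whose windows held no match.
Sorbs2: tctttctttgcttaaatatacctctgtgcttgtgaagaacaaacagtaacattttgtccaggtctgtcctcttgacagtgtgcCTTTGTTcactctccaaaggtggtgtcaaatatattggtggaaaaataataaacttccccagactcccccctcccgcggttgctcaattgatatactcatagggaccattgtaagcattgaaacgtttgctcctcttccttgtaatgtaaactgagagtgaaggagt
Rgcc: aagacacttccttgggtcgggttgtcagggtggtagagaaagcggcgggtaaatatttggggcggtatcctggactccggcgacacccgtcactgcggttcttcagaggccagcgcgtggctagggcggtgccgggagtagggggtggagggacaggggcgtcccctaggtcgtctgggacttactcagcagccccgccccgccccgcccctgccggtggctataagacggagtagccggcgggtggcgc
Lbh: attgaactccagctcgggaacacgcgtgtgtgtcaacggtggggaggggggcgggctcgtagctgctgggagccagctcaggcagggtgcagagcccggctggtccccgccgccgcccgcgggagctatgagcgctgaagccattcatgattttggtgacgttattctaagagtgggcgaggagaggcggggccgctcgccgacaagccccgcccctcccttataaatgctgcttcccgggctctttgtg
A match is a string of letters and not a binding site, and its absence says only that these letters are not in the window. Counts from the 3' ends of transcripts do not tell which start site was used.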

How the data were processed

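The authors deposited raw UMI counts for each gene in each barcode. The submitters' processing notes name Cell Ranger and the builds GRCm38 and mm10, and the file headers give version 3.1.0. The sources used here do not name the annotation release or how barcodes were chosen. Values from these counts were computed in Python 3.11.15 with numpy 2.4.6, scipy 1.17.1 and pandas 2.3.3, and plotted with matplotlib 3.10.9.

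Cells were kept that had 500 or more genes and no more than 20% mitochondrial UMIs, 54328008 UMIs in the antagonist and 66206242 in the control library. Doublets were not removed. UMIs were summed per library or gate and divided by its total (CPM). Levels have exact Poisson, ratios exact conditional binomial and shares Clopper-Pearson intervals. For counts of 0 the floor was 3 counts. With 1 library per group no test was made. Calculations were tested on simulated data.

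A cell entered a gate with at least 3 marker UMIs and a marker share of its UMIs of at least 0.5% (enterocyte), 1.0% (goblet), 10% (Paneth), 0.3% (tuft or enteroendocrine), 0.5% (mitotic) or 0.25% (S phase). Differentiated types took precedence over the mitotic, S phase and Lgr5-detected gates, in that order, and a cell past several type limits went to the type furthest past its limit. These limits were set on the marker shares seen over both libraries, without use of the members' counts. A gene was measured where it reached 20 CPM in either library and 100 UMIs in their sum (50 in a gate). Genes named with the members were the highest and lowest ratios of each partner list and the 3 highest correlations per member, some of which are not reported here. The members and lists were chosen with earlier results of these data known. Gene coordinates come from GENCODE. Alternatives were other cell filters, thinning, scalings, weightings, gate limits and limits on low counts.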

Additional observations from a re-analysis of the deposited data

Results flagged for a closer look

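The Cdca7 log2 ratio of 0.681 in the Paneth gate had the opposite sign to that over all cells (-1.53). This difference between gates was not tested, since each has 1 library per condition.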

How the results depend on the processing

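All 7 members kept a lower level in the antagonist library, by at least 2-fold, over all cells under every alternative run. The alternatives use the same counts by which the members were chosen, so this is no further evidence of the difference. With at least 1000 genes and at most 10% mitochondrial UMIs, log2 ratios were -2.81 for Lbh and -2.15 for Marcksl1. In cells thinned to 3000 UMIs they were -3.11 for Lbh, -2.74 for Tifa, -1.60 for Cdca7, -1.76 for Utrn and -2.44 for Marcksl1. Scaled by the median ratio of measured genes, they were -1.46 for Cdca7 and -1.49 for Utrn. With equal weight for each cell, they were -3.29 for Rgcc, -2.83 for Lbh, -3.31 for Sorbs2, -1.49 for Cdca7, -1.73 for Utrn and -1.69 for Marcksl1. Without the 5% of cells with the most UMIs, they were -2.82 for Lbh, -2.61 for Tifa and -1.68 for Utrn. Weighting gates alike gave -1.50 for Utrn. The share of genes at least 2-fold lower was 11.5% when 1 UMI in each library sufficed, against 2.65%.

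When cells were thinned before gating, which left 18 antagonist and 924 control cells in the Lgr5-detected gate, 3 of 7 members were at least 2-fold lower there in place of 7, and Rgcc was at a log2 ratio of 0.307, from 8 UMIs in antagonist cells, while Sorbs2, with no UMI, was undetermined. The share of all genes was not counted in this thinned gate, so nothing is read from the 3 of 7. Fewer cells enter by construction, and no other cause was tested. Of the other values by gate, 75 moved by less than their counting interval and 36 by more, without a change of direction. Leaving out barcodes found in both libraries and taking Lgr5-detected cells of any phase were chosen after seeing the data, and moved no value of a member by more than its counting interval. No paired analysis was possible because each group has 1 library. Differences between mice cannot be measured here, and low counts limit what can be said of Lgr5-detected antagonist cells.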
